A study of Xenopus tropicalis with 9 samples.

Results

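The genes described here encode the proteins of the cytosolic ribosome of *Xenopus tropicalis*. They were chosen by name, as every gene whose symbol begins with rpl or rps followed by a digit, together with *rpsa*, *rplp0*, *rplp1* and *rplp2*, leaving out the S6 kinases and the mitochondrial ribosomal proteins. This gave 79 of the 23633 genes in the expression table, 48 with large subunit names and 31 with small subunit names. RNA was sequenced from whole embryos of the Nigerian strain at neurula stage 14, in 9 libraries that form 3 groups of 3. Cic knockdown (Cic_KD) embryos received forward and reverse Cic-TALEN mRNAs at 1 ng for each, which encode a pair of nucleases that cut the *cic* gene, and as F0 animals they are mosaics of different edits. Fgf4 overexpressing embryos received 5 pg of plasmid Cska-Fgf4, in which the Cska promoter drives *fgf4*, and control embryos received water. Cic is a transcriptional repressor, and the study asked whether it acts downstream of Fgf and Erk signalling and which genes respond to both treatments.

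The small subunit of the ribosome reads the mRNA and the large subunit joins amino acids, and each holds its proteins in single copies apart from the stalk proteins. Ribosomal protein mRNAs are among the most abundant in a growing cell, and in vertebrates they begin with a run of pyrimidines through which the mTor pathway controls their translation. *Xenopus* embryos start development with a large maternal store of ribosomes, and begin to assemble new ones only after zygotic transcription has started.

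Values are in TPM, a relative abundance that corrects for transcript length, so that levels of different genes can be set side by side. The table totals lie between 871757 and 1162165 TPM per library instead of at a common value, and the read depth behind each value is unknown. *fgf4* itself was at 1692, 168 and 95.4 TPM in the 3 Fgf4 libraries, against 3.23, 4.07 and 0.953 TPM in control libraries. *cic* mRNA, which an edit need not lower, was at 14.7, 13.8 and 11.8 TPM in Cic knockdown libraries, against 14.7, 14 and 13.4 TPM in control libraries. Markers of neural plate, epidermis, mesoderm and endoderm were all found (13 of 13), while 3 blood globins summed to between 0.145 and 5.43 TPM. The labels number the replicates from 1 to 3 within each group, and the study models an embryo batch beside treatment, so the number was taken as the batch. Nothing in the labels says that libraries came from separate clutches, and p-values therefore measure only the spread between these libraries. Values in threes below are in the order of replicates 1, 2 and 3.

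Nearly all of the genes were highly expressed. Of the 79, 74 had a mean over the 9 libraries between 497 TPM (*rps15a*) and 3694.5 TPM (*rpl37*), a 7.43-fold span with a median of 1271 TPM. Together the 79 genes made up 8.48%, 6.76% and 11.5% of all TPM in Cic knockdown libraries, 9.93%, 6.16% and 15.8% in Fgf4 libraries, and 10.02%, 7.45% and 14.9% in control libraries. The means were 8.92% ± 2.4 in Cic knockdown, 10.6% ± 4.8 in Fgf4 and 10.8% ± 3.8 in control libraries (SD, n = 3 each). Within each replicate number the groups lay closer together than the replicate numbers did within a group, and the ranges of all 3 groups overlapped. Between 37 and 71 of the genes were among the 200 most abundant genes of a library.

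**Figure D1:**
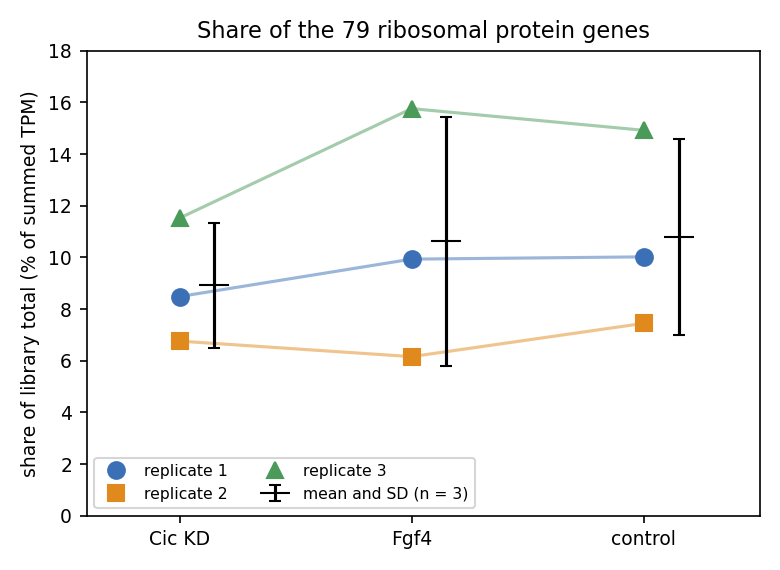
Share of each library's summed TPM (%, y axis) held by the 79 ribosomal protein genes, for the Cic knockdown, Fgf4 and control groups. Symbols are single libraries, lines join libraries of 1 replicate number and bars are the mean and SD (n = 3); replicate 3 is the highest in every group, from 11.5% to 15.8%, and replicate 2 the lowest, from 6.16% to 7.45%.

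The highest member in all 9 libraries was *rpl37*, a large subunit protein, with 2185, 2140.4 and 4578 TPM in Cic knockdown libraries, 3275, 1996.5 and 6642 TPM in Fgf4 libraries and 2947, 2649.7 and 6837 TPM in control libraries. It was followed by *rplp1*, 1 of the acidic proteins of the stalk that receives elongation factors, with 1789.9, 1464 and 3326 TPM in Cic knockdown libraries, 2298, 1579 and 5222 TPM in Fgf4 libraries and 2080.1, 1683 and 4739 TPM in control libraries. The other 3 of the top 5 by mean level were *rps25* (2607 TPM), *rpl37a* (2519.5 TPM) and *rps28p9* (2227 TPM), a name for which the reference gene table also gives the symbol rps28. The spread between libraries of any of these genes was wider than the steps between neighbours in this order. The stalk base *rplp0* (704 TPM) and the partner of Rplp1, *rplp2* (722 TPM), were measured well below *rplp1*, in ranks 70 and 69 of 79.

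Only 5 members lay below the main group. *rpl7l1*, a relative of *rpl7*, averaged 295 TPM, and *rps19bp1*, which encodes a protein that binds Rps19 and is not itself a core subunit, averaged 92.7 TPM. *rpl22l1*, the paralogue of *rpl22*, had 50.7, 48.7 and 41.8 TPM in Cic knockdown libraries, 52.3, 54.6 and 49.8 TPM in Fgf4 libraries and 47.1, 47.5 and 49.9 TPM in control libraries. Its highest and lowest libraries differed by 1.30-fold, whereas those of *rpl22* differed by 2.95-fold around a mean of 1057 TPM. The gene listed as *rps27* was at only 2.88, 6.33 and 3.8 TPM in Cic knockdown libraries, 5.41, 8.92 and 4.24 TPM in Fgf4 libraries and 2.82, 7.27 and 3.07 TPM in control libraries. In the reference gene table this symbol is also an older name of rps27l, so which of the pair was measured is uncertain. *rpl3l*, a form of *rpl3* used by striated muscle in mammals, was at 0 to 0.284 TPM in the 9 libraries and was left out of all tests, which leaves 78 members.

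The largest differences among the libraries followed the replicate number. In a limma fit of log2(TPM + 0.5) with condition and replicate number as factors, a moderated F test over replicate number called 74 of 78 members (94.9%) at an adjusted p of at most 0.05, where it called 41.9% of all 13833 genes fitted. The median member was higher in replicate 3 than in replicate 2 by 1.30 on the log2 scale, a 2.46-fold difference, against 0.06 over all genes fitted. Replicate 3 was above replicate 1 by a median of 0.84, and replicate 2 was below replicate 1, at a median of -0.45. The order of replicate 3, then 1, then 2 held for 69 members (88.5%), and for 23.2% of all genes fitted. All 3 libraries of replicate 3 lay above all 3 of replicate 2 for 74 members (27% of all genes fitted), and above all 3 of replicate 1 for 62 members (23.4% of all genes). Without all 3 libraries of replicate 3 the F test called 1 member (0.0726% of all genes), and when any single library, or replicate 1 or 2, was left out it called 62 to 74 (17% to 47% of all genes). What sets the replicate numbers apart was not tested.

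**Figure D2:**
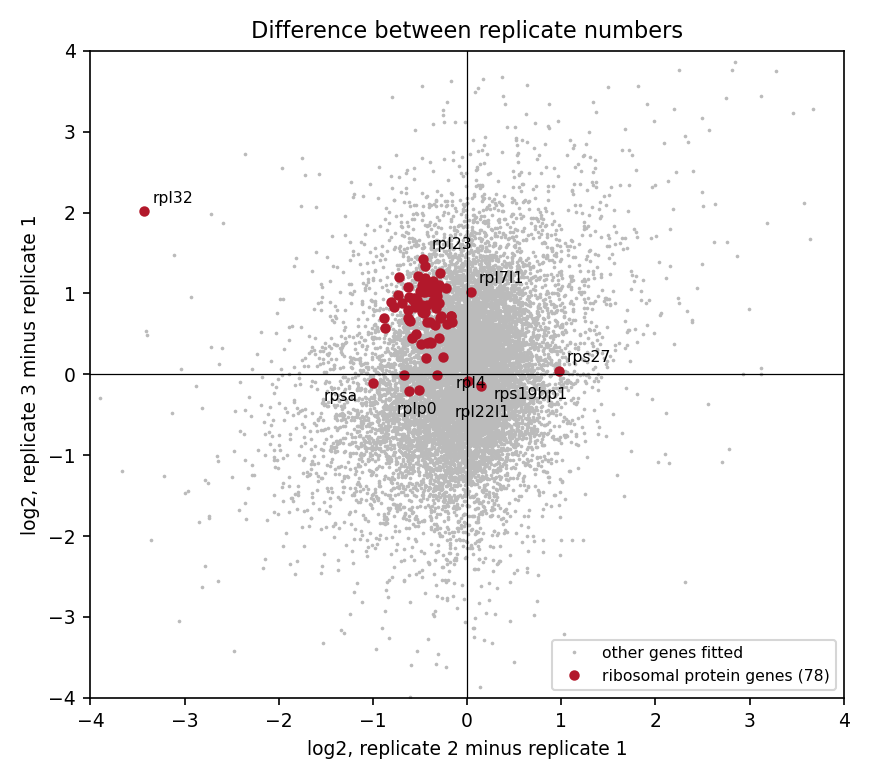
Fitted log2 difference of replicate 2 minus replicate 1 (x axis) and of replicate 3 minus replicate 1 (y axis) for the 78 ribosomal protein genes (red) and all other genes fitted (grey); 26 genes beyond 4 on either axis are not drawn. Most members lie in the upper left, with medians of -0.45 and 0.84, and *rpl32* lies apart at -3.43 and 2.02.

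The smallest p over replicate number belonged to *rpl32*, which encodes a large subunit protein, and its range was unlike that of any other member. It was at 422, 54 and 1679.6 TPM in Cic knockdown libraries, 692, 60.9 and 2898 TPM in Fgf4 libraries and 794, 55.1 and 3185 TPM in control libraries. Its 3 replicate 2 libraries, at 54.0 to 60.9 TPM, were all far below the other 6, and the fitted difference was -3.43 between replicates 2 and 1 and 2.02 between replicates 3 and 1 (adjusted p = 0.000123). The next by p were *rpl23*, *rps10*, *rpl13a* and *rps19*. *rpl23*, which lies on the face of the large subunit that meets the small subunit, had 1054, 856 and 2713 TPM in Cic knockdown libraries, 1504, 887 and 4099 TPM in Fgf4 libraries and 1389, 1100.5 and 3840.4 TPM in control libraries. *rps10* encodes a protein of the small subunit head and was 2.92-fold higher in replicate 3 than in replicate 2, while *rpl13a*, of the large subunit, was 2.89-fold higher (adjusted p = 0.000913 and 0.00103). *rps19*, the gene most often mutated in Diamond-Blackfan anaemia in humans, was 3.13-fold higher (adjusted p = 0.00104).

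Some members left this pattern. The F test did not call 4 members, among them *rpl4* (adjusted p = 0.119), *rps19bp1* (0.527) and *rpl22l1* (0.769). *rpl4*, a large subunit protein that lines the exit tunnel, had 1039, 877 and 1048.5 TPM in Cic knockdown libraries, 1348, 918 and 1179.5 TPM in Fgf4 libraries and 1164, 1044 and 1291 TPM in control libraries. *rplp0* and *rpsa*, a small subunit protein also known as the laminin receptor precursor, had log2 differences of -0.61 and -0.998 for replicate 2 minus replicate 1, and of -0.21 and -0.10 for replicate 3 minus replicate 1. *rpl7* and *rpl3* behaved likewise, with -0.51 and -0.67 in replicate 2 and -0.20 and -0.01 in replicate 3. The gene listed as *rps27* ran the other way, with replicate 2 above replicate 1 by 0.97 and replicate 3 above it by 0.04.

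Each gene was also set against the median member of the same library, which removes any movement that the members share. Ranks were not compared, and this range was not computed for other genes. The relative level of 70 of the 78 varied by less than 1 on the log2 scale over the 9 libraries, with a median range of 0.50, and that of 3 varied by more than 2 (*rpl32* 4.69, *rps27* 2.79, *rps19bp1* 2.37). The steadiest was *rps6*, the small subunit protein that S6 kinases phosphorylate, whose relative level varied by 0.09. Its own level still ran over a 2.84-fold range, at 1086, 916 and 1757 TPM in Cic knockdown libraries, 1541, 913 and 2593 TPM in Fgf4 libraries and 1410.4, 1097 and 2519 TPM in control libraries. *rps3*, at the mRNA entry of the small subunit, was the next steadiest, with a relative range of 0.16.

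**Figure D3:**
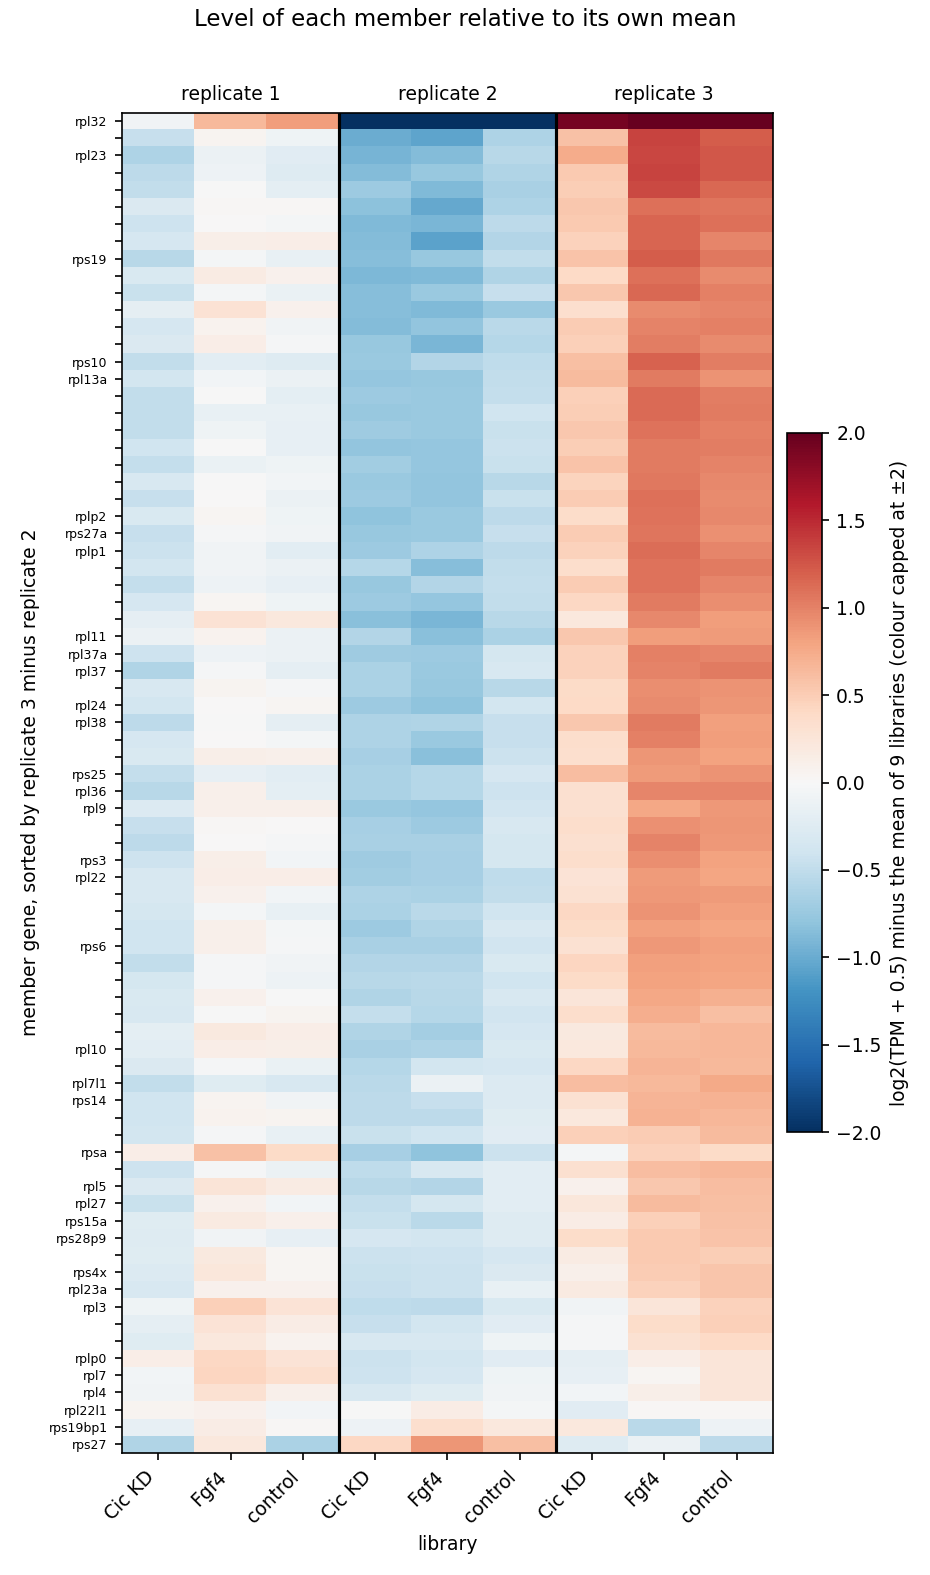
Level of each of 78 ribosomal protein genes (y axis) in each library (x axis, Cic knockdown, Fgf4 and control within replicates 1, 2 and 3) as log2(TPM + 0.5) minus the gene's mean over the 9 libraries, with colours capped at 2 in either direction; only genes named in the text are labelled. The columns of replicate 3 are mostly red and those of replicate 2 mostly blue, and within replicates 1 and 3 the Cic knockdown column is mostly paler or bluer than its neighbours.

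Cic knockdown embryos had slightly lower levels of nearly all ribosomal protein mRNAs than controls, but no single gene passed the limits on p and size used for a call. The median log2 change of the 78 members was -0.35 (0.783-fold), against -0.02 over all 13598 genes tested. The log2 change was below 0 for 77 members and above 0 for *rps27* alone, and it ran from -0.62 (*rpl32*) to 0.04. Over all genes tested it was below 0 for 7126 of 13598. Members varied together between libraries and are not replicates of a condition, so counts of members are not independent observations. A gene counts as called here at an unadjusted p of at most 0.01 together with a log2 change of at least 0.81 in either direction. No member was called (limma), where 4.74% of all genes were called, and the lowest adjusted p was 0.185. At an unadjusted p of at most 0.05, 42 members were lower (6.9% of all genes) and 0 were higher (10.3% of all genes). The 42 were 25 of 47 genes with large subunit names and 17 of 31 with small subunit names.

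Compared within a replicate number, the median of the members was -0.32 in replicate 1, -0.26 in replicate 2 and -0.47 in replicate 3. In each of the 3 pairs 76 members were lower in the Cic knockdown library than in its control. Over all 13598 genes tested the counts were 7094, 6735 and 7004. In all 3 pairs 74 members were lower, as were 25.3% of all genes tested. No member had all 3 Cic knockdown libraries below all 3 control libraries (5.1% of all genes fitted). In whole embryos, fewer cells with high levels and less of the mRNA per cell cannot be told apart. The count of 42 depended on single libraries. It was 0 without control replicate 3, 0 without Cic knockdown replicate 1, 1 without control replicate 2, and 3 without either control replicate 1 or Cic knockdown replicate 3, fits in which 2.3% to 8.04% of all genes were lower at that p. It was 0 in a fit without the replicate number (1.54% of all genes), 66 when the 6 libraries were fitted alone (11.1%), and 2 to 17 with no filter, a constant variance prior or 3 of the 4 other scalings (3.97% to 8.6%). The median stayed between -0.45 and -0.28 when any library or replicate number was left out. It was -0.21 after quantile normalization, against -0.04 over all genes, and -0.26 at equal totals, against 0.07 over all genes. With median-of-ratios scaling it was -0.41, against -0.08 over all genes. Table totals were 871757, 898250 and 1092718 TPM in Cic knockdown libraries, against 921975, 973094 and 1162165 TPM in control libraries.

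Of the 13 germ layer markers, 9 had log2 changes below 0 in Cic knockdown against control, with a median of -0.31. Over all genes tested, 7126 of 13598 were below 0. The 2 markers called, *sox2* and *sox3*, are of the neural plate. *sox2* had 60.5, 109 and 137 TPM in Cic knockdown libraries, against 181, 222 and 239 TPM in control libraries, and *sox3* had 119, 155 and 215 TPM in Cic knockdown libraries, against 403, 333 and 269.7 TPM in control libraries. Both were called lower, at -1.14 and -1.06 (adjusted p = 0.0738 and 0.156), as 2 of the 13 germ layer markers and 0.75% of all genes, and in both the Cic knockdown libraries lay below all control libraries. In Fgf4 libraries *sox2* was at 145, 165 and 206 TPM and *sox3* at 162, 297 and 172 TPM. Each value was below the control of the same replicate number. The part of these markers in the lower median of the ribosomal protein mRNAs was not tested.

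Among the members with the smallest p were the large subunit genes *rpl32*, *rpl9*, *rpl5* and *rpl7*. *rpl32* had 422, 54 and 1679.6 TPM in Cic knockdown libraries, against 794, 55.1 and 3185 TPM in control libraries, with a log2 change of -0.62 (SE 0.19, adjusted p = 0.185). The difference was seen in replicates 1 and 3, at -0.91 and -0.92, and was -0.03 in replicate 2, where the gene was near its lowest level in both groups. Without Cic knockdown replicate 2, without control replicate 2 or without all of replicate 2, *rpl32* passed both limits for a call, at -0.86, -0.82 and -0.92. *rpl9* had 567, 409.8 and 858 TPM in Cic knockdown libraries, against 736, 524 and 1248 TPM in control libraries, with a log2 change of -0.42 (SE 0.14, adjusted p = 0.201). *rpl5*, which carries the 5S rRNA into the large subunit together with Rpl11, had 624, 521 and 807 TPM in Cic knockdown libraries, against 851, 658 and 1167 TPM in control libraries, with a log2 change of -0.44 (SE 0.15, adjusted p = 0.216). In each pair of *rpl9* and of *rpl5* the Cic knockdown library was the lower, although the ranges of the groups overlapped. *rpl7* stood at -0.38 (SE 0.13, adjusted p = 0.220).

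The partner of *rpl5* showed little difference. *rpl11* had 867, 628 and 1358 TPM in Cic knockdown libraries, against 869, 604 and 1694.5 TPM in control libraries, with a log2 change of -0.09 (SE 0.15, adjusted p = 0.788), and its sign turned to 0.0061 when libraries were rescaled to equal totals and to 0.11 after quantile normalization. Among the stalk genes the log2 changes were -0.26 for *rplp0*, -0.31 for *rplp1* and -0.36 for *rplp2*, of which *rplp2* alone had an unadjusted p below 0.05. Small subunit genes lay in the same range. *rps6* and *rps3* stood at -0.39 and -0.39, and *rps14*, a protein of the platform beside the decoding site, at -0.32. *rps19* was at -0.41, *rps4x* at -0.31 and *rpsa* at -0.30. *rps27a*, which encodes a ribosomal protein fused to ubiquitin, was at -0.36. Unadjusted p was below 0.05 for *rps6*, *rps3*, *rps14*, *rps19* and *rps27a*, and above it for *rps4x* and *rpsa*.

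*rpl38*, whose loss in mice disturbs the axial skeleton, had 1118, 1050.4 and 2338.5 TPM in Cic knockdown libraries, against 1413.5, 1169.5 and 2831 TPM in control libraries, with a log2 change of -0.26 (SE 0.14, adjusted p = 0.397). *rpl10*, which joins the large subunit late in its assembly, stood at -0.38, and *rpl22*, which also binds RNA outside the ribosome, at -0.39. Its paralogue *rpl22l1* was at -0.04, a sign that turned to 0.057 with equal totals and 0.015 after quantile normalization. The members with the smallest differences were *rps28p9* (-0.13), *rpl11*, *rps19bp1* (-0.05), *rpl22l1* and *rps27* (0.04), and 3 of these 5 are the low or uncertain members named above.

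**Figure D4:**
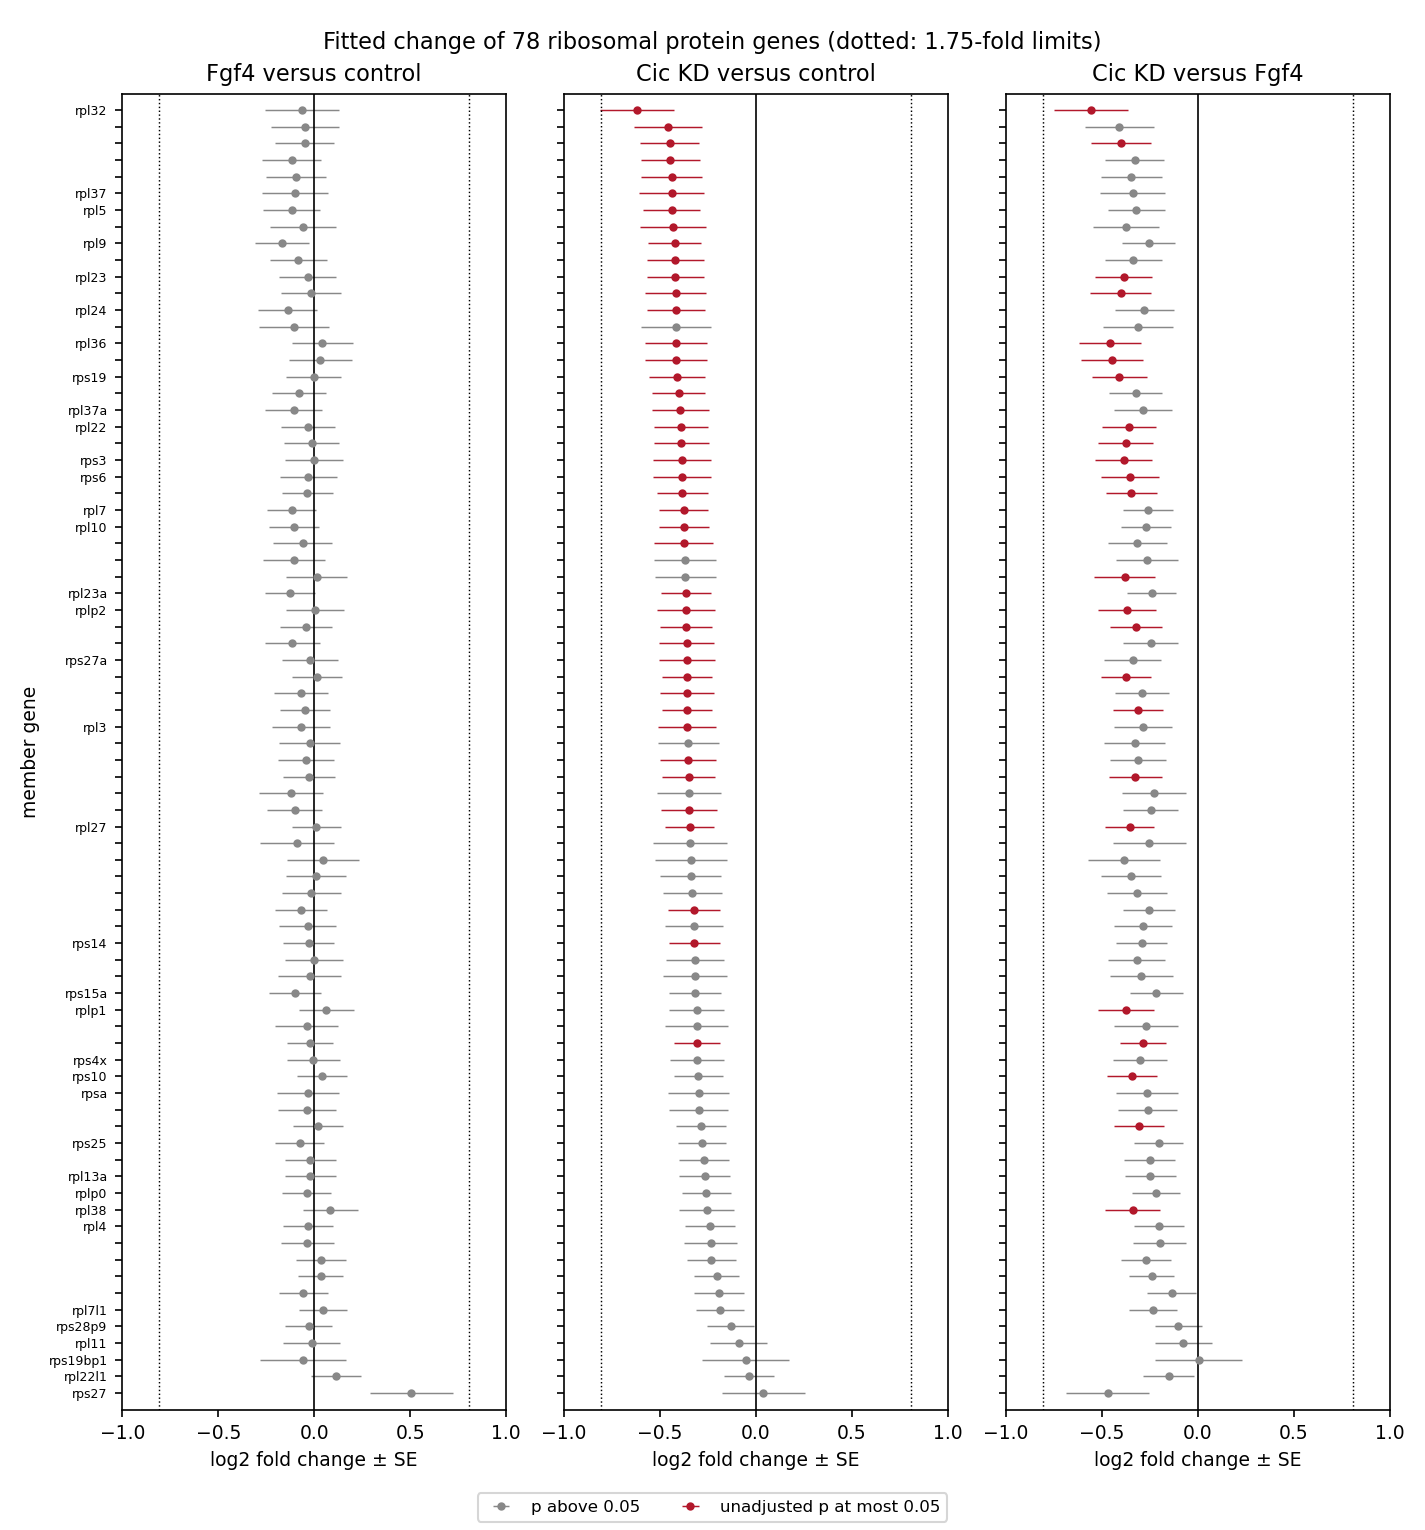
Fitted log2 fold change with its SE (x axis) of each of 78 ribosomal protein genes (y axis, sorted by Cic knockdown versus control) in Fgf4 versus control, Cic knockdown versus control and Cic knockdown versus Fgf4. Genes named in the text are labelled. Red marks an unadjusted p of at most 0.05 (0, 42 and 24 genes), and no gene reaches the dotted limits at 0.81.

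No difference in a ribosomal protein gene was detected between Fgf4 overexpressing and control embryos. The median SE of a member was 0.15 on the log2 scale, so small differences could be missed. The median log2 change of the 78 members was -0.03, against 0.01 over all 13437 genes tested, with 60 members below 0 and 18 above. Over all genes tested 6488 were below 0 and 6949 above. None passed the limits for a call (limma), where 2.56% of all genes did, and the lowest adjusted p was 0.376. At an unadjusted p of at most 0.05, 0 members were lower (7.08% of all genes) and 0 were higher (6.19% of all genes). The replicate pairs disagreed in sign. The median was 0.10 in replicate 1, -0.25 in replicate 2 and 0.04 in replicate 3. In the Fgf4 library of the pair 9, 73 and 27 members were lower, as were 6248, 6606 and 6914 of all genes tested. Only 2 members were lower in all 3 pairs, against 19.3% of all genes tested, and 1 was higher in all 3. Without Fgf4 replicate 2 the median was 0.09.

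The member with the smallest p was the gene listed as *rps27*. It had 5.41, 8.92 and 4.24 TPM in Fgf4 libraries, against 2.82, 7.27 and 3.07 TPM in control libraries, a difference of 0.51 (SE 0.22, unadjusted p = 0.05004, adjusted p = 0.376), and it was the higher in Fgf4 in each of the 3 pairs. It was near the lower end of the levels measured for any member, and its p was at most 0.05 with a pseudocount of 0.1. The next 4 were all large subunit genes with small negative differences. *rpl9* was at -0.17, *rpl23a*, which lies beside the peptide exit, at -0.13, *rpl24* at -0.14 and *rpl7* at -0.12, with adjusted p values of 0.634 to 0.730. The sign of *rpl24* turned to 0.025 without Fgf4 replicate 2. Of the genes followed above for Cic knockdown, *rps6* was at -0.03, *rpl11* at -0.01, *rpl5* at -0.12 and *rplp1* at 0.06.

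Set directly against Fgf4 libraries, Cic knockdown libraries had lower levels of most members, again with no gene past the limits. The median log2 change was -0.31, against -0.02 over all 13607 genes tested. Below 0 were 77 of 78 members and 7107 of all genes tested. None was called (limma), where 2.13% of all genes were. At an unadjusted p of at most 0.05, 24 members were lower (5.45% of all genes) and 0 were higher (8.09% of all genes), and the lowest adjusted p was 0.334. The difference lay in replicates 1 and 3, with medians of -0.41 and -0.54, and 78 and 77 members lower (6855 and 6796 of all genes). In replicate 2 the median was -0.01 and 44 members were lower (6925 of all genes). In all 3 pairs 43 members were lower, as were 13.7% of all genes tested. The count of 24 was 65 without Fgf4 replicate 2 (9.01% of all genes) and 39 without Cic knockdown replicate 2 (7.08%). It was 5 or fewer without any other single library (1.81% to 6.87%). It was 1 when the 6 libraries were fitted alone (1.68% of all genes), 0 without the replicate number (0.595%) and 0 under 3 of the 4 other scalings (2.28% to 6.38%). The median of -0.31 was -0.18 at equal totals, against 0.10 over all genes, and -0.09 after quantile normalization, against -0.02. With median-of-ratios scaling it was -0.35, against -0.06 over all genes.

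The smallest p again belonged to *rpl32*, at -0.56 (SE 0.19, adjusted p = 0.334). *rpl36*, a large subunit gene, had 1067, 1009.6 and 1969 TPM in Cic knockdown libraries, against 1687, 1059 and 3082 TPM in Fgf4 libraries, with a log2 change of -0.46 (SE 0.16, adjusted p = 0.336). Its replicate 2 libraries were close together in both groups. *rps19* and *rpl27* stood at -0.41 and -0.36, each with an adjusted p of 0.336.

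**Figure D5:**
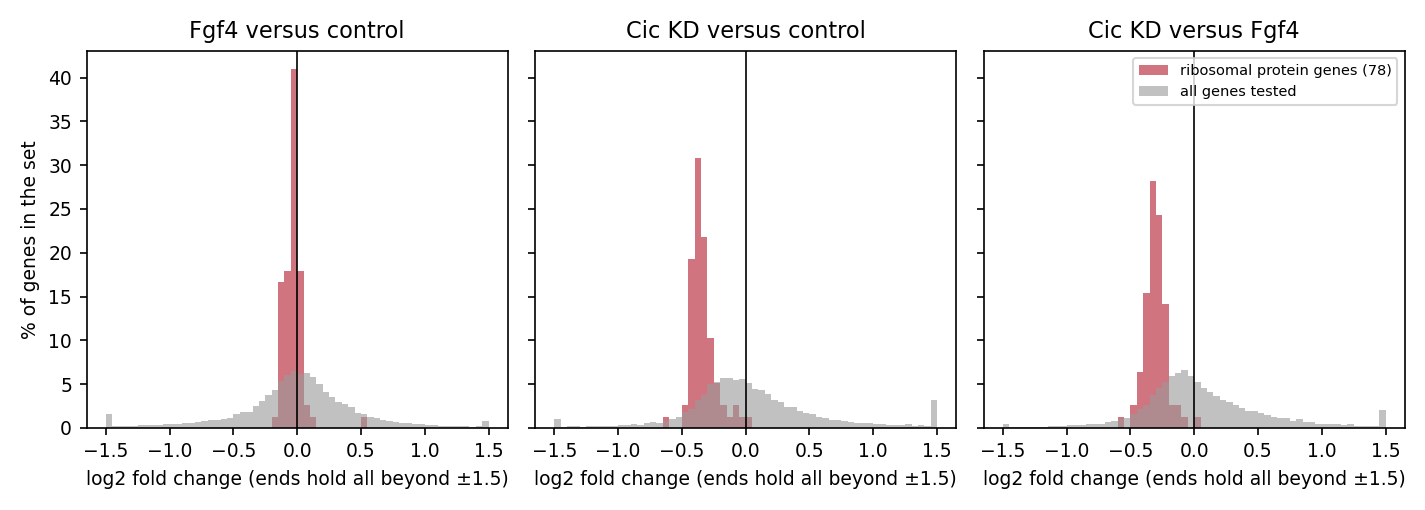
Distribution of fitted log2 fold changes (x axis, values beyond 1.5 collected in the end bars) of 78 ribosomal protein genes (red) and of all genes tested (grey), as % of each set (y axis), in Fgf4 versus control, Cic knockdown versus control and Cic knockdown versus Fgf4. The members form a narrow peak with medians of -0.03, -0.35 and -0.31, while all genes have medians of 0.01, -0.02 and -0.02.

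Genes tied to the ribosome but outside the name rule gave values on the same scale. Of 3 such genes, *fau* encodes a ribosomal protein fused to a ubiquitin-like protein and *rack1* a scaffold on the small subunit. In Cic knockdown against control all 3 were lower at an unadjusted p of at most 0.05 (6.9% of all genes), with a median of -0.37. *rack1* had 960.2, 800.0 and 1075 TPM in Cic knockdown libraries, against 1256, 1029 and 1427.5 TPM in control libraries, with a log2 change of -0.39 (SE 0.12, adjusted p = 0.190). The table also lists gnb2l1, an older name of this gene, so that its reads may be split. The higher level in replicate 3 was also seen in *fau*. That gene had 821, 685 and 1834 TPM in Cic knockdown libraries, 1031, 730.2 and 2716.5 TPM in Fgf4 libraries and 1012, 879 and 2366 TPM in control libraries.

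Other lists of genes for protein synthesis also had medians below 0 in Cic knockdown against control embryos. Their counts at an unadjusted p of at most 0.05 stand beside shares of 6.9% lower and 10.3% higher over all genes. Of 38 ribosome biogenesis genes tested, 12 were lower and 0 higher, with a median of -0.34. The smallest p belonged to *ltv1* (-0.62) and *nop2* (-0.55), which act in small and large subunit assembly. Of 9 genes of the RNA polymerase I machinery, 3 were lower and 0 higher, among them *polr1a* (-0.74), its largest subunit, with a median of -0.23. Elongation factors had a median of -0.27 (2 of 6 lower). The most abundant of these 6, *eef1a1* and *eef1a1o*, stood at -0.02 and 0.09. The 44 initiation factors had a median of -0.23 (8 lower, 1 higher). The 17 mRNAs outside the name rule that are known in mammals to begin with an oligopyrimidine tract had a median of -0.27, and 5 were lower. In the 72 mitochondrial ribosomal protein genes the median was -0.12, and 5 were lower and 3 higher, so that the share of lower genes was that of all genes. The median difference of replicate 3 minus replicate 2 was 0.12 in the biogenesis genes and 0.54 in the mitochondrial ribosomal protein genes, where it was 1.30 in the members. None of these differences between lists was tested.

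Of the regulators listed, *mdm2*, a ubiquitin ligase to which free Rpl5 and Rpl11 bind in mammals, was called higher in Cic knockdown than in control embryos. It was at 151, 130.3 and 137 TPM in Cic knockdown libraries, against 44.6, 52.8 and 44.4 TPM in control libraries. All its Cic knockdown libraries lay above all control libraries, with a log2 change of 1.55 (SE 0.31, adjusted p = 0.0878). *larp1*, which binds the pyrimidine run of these mRNAs, and *mycn*, which drives ribosome production, were lower at an unadjusted p of at most 0.05, at -0.47 and -0.78, whereas *mtor* was at 0.08 and *myc* at -0.03.

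Of 12 oocyte and maternal genes, 8 were called higher in Cic knockdown than in control embryos (3.99% of all genes), with a lowest adjusted p of 0.0738. All 12 had log2 changes above 0, with a median of 1.74, although *zar1* and *zp4* had unadjusted p values of 0.132 and 0.302. This list was chosen with earlier results known, and its direction is no independent evidence. *gdf1*, a growth factor laid down in the egg, was at 2.91, and *wee2*, an oocyte kinase, at 3.27. *gdf1* had only 5.94, 6.88 and 7.23 TPM in Cic knockdown libraries, against 0.317, 0.57 and 0.491 TPM in control libraries. Its control values were near the 0.5 added before taking logs, on which the size of its change depends. The summed level of the 12 was 541, 486 and 488 TPM in Cic knockdown libraries, 376, 873 and 141 TPM in Fgf4 libraries and 185, 333 and 124 TPM in control libraries, and none of the 12 was at 0 in every library. In Fgf4 replicate 2, which had the lowest share of ribosomal protein mRNAs (6.16%), 467 of the 873 TPM came from *vegt*. Without that gene the sums were 433, 364.5 and 296 TPM in Cic knockdown libraries, 226, 406 and 85.9 TPM in Fgf4 libraries and 169, 229 and 94.5 TPM in control libraries, so that the highest was Cic knockdown replicate 1. In Fgf4 replicate 2, *mdm2* was at 127 TPM, against 45.9 and 47.0 TPM in Fgf4 replicates 1 and 3. The part of these transcripts in the lower median of the ribosomal protein mRNAs was not tested.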

How the data were processed

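Poly(A) RNA of whole embryos was sequenced on an Illumina platform. The authors trimmed reads with cutadapt, quantified them with Salmon against *X. tropicalis* genome version 9.1 and aggregated them by gene in sleuth; the versions of these tools are not given in the sources used here. The deposited table holds a signal per gene and library that the authors' mean columns call TPM, with a factor per library that the sources used here do not name, since totals differ between libraries. The counts behind TPM are unknown, and counting error is therefore not estimated.

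The 13833 genes whose mean reached 1.5 TPM in some group were fitted on the log2(TPM + 0.5) scale in limma 3.58.1 under R 4.3.3 (lmFit, then eBayes with its trend option), using group and replicate number as terms across the 9 libraries. This left 4 residual degrees of freedom, to which the prior added 3.31. A comparison tested genes at 1.5 TPM or more in either of its groups. Tests are two-sided, with Benjamini-Hochberg adjustment over every gene tested. Replicate numbers come from the labels and the authors model embryo batch; deviations from the group means of same-numbered libraries correlated at 0.38 to 0.791 in all 9 pairs, and at -0.729 to 0.337 in 18 pairs of different numbers, so the numbers were taken to pair the libraries.

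The fit was tested on simulated data, with planted changes larger than that of any member between groups and noise independent between genes. That test does not bear on small changes shared by many genes. The members and gene lists were chosen with earlier results of these data known. Genes named are the 5 with the smallest p in each test, the 5 highest and 5 lowest by mean level, a fixed set of members and genes that lie outside a pattern described; these last were chosen after their values were seen. Some genes that the rule names are not reported here. All 79 symbols matched a protein coding gene of the reference table. That table is of another assembly, so no coordinates are given. Alternatives were other pseudocounts, filters, scalings and variance priors, no replicate number, fits of 6 libraries and leaving out libraries. Python 3.11.15, pandas 2.3.3 and matplotlib 3.10.9 were used for summaries and plots.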

Additional observations from a re-analysis of the deposited data

How the results depend on the processing

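In Cic knockdown against control, the count of 42 members lower at an unadjusted p of at most 0.05 was 0 with no replicate block (1.54% of all genes). It was 17 with no filter (5.39%), 4 with libraries rescaled to equal totals (3.97%) and 8 when rescaled without ribosomal protein genes (4.75%). It was 2 after quantile normalization (8.6%), 16 with a constant variance prior (5.89%) and 66 with only the 6 libraries (11.1%). Leaving out libraries gave 0 to 60 (1.7% to 9.22% of all genes). The median of -0.35 was -0.26 at equal totals, against 0.07 over all genes, and -0.21 after quantile normalization. With median-of-ratios scaling it was -0.41, against -0.08 over all genes. It ran from -0.45 to -0.28 when libraries were left out. With the limit on fold dropped and p at most 0.05, 42 members passed as lower instead of 0, and leaving out libraries gave 0 to 1 called lower.

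In Cic knockdown against Fgf4, the count of 24 lower was 0 with no replicate block (0.595% of all genes). It was 5 with no filter (4.58%), which added 1 higher, 0 at equal totals (2.28%) and 0 when rescaled without ribosomal protein genes (2.79%). It was 0 after quantile normalization (6.38%), 6 with a constant prior (4.56%) and 1 with only the 6 libraries (1.68%). Leaving out libraries gave 0 to 65 (1.3% to 9.01% of all genes), and the limits without fold gave 24. Equal totals moved the median of all genes to 0.10, and that of the members to -0.18, while after quantile normalization the members' median was -0.09. With median-of-ratios scaling the members' median was -0.35.

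In Fgf4 against control, 1 member was higher at p of at most 0.05 with a pseudocount of 0.1 and 1 with a constant prior, and 0 to 1 when libraries were left out. The members called over replicate number ranged from 1 to 74 when libraries were left out (0.0726% to 47% of all genes).

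Over all members in Fgf4 against control, 60 were below 0 in the main fit and 8 without Fgf4 replicate 2. In Cic knockdown against Fgf4, 77 were below 0 in the main fit and 68 after quantile normalization. Single genes were followed only for the 5 smallest p in each comparison and, in Cic knockdown against control, the fixed set. Among these followed genes, signs turned for 4, all with small changes. *rpl24* (Fgf4 against control) ran from -0.26 to 0.025 when libraries were left out. In Cic knockdown against control, *rpl11* was at 0.0061 at equal totals and 0.11 after quantile normalization, and ran from -0.21 to 0.026 when libraries were left out. *rpl22l1* was at 0.057 at equal totals, 0.015 after quantile normalization and 0.027 when rescaled without ribosomal protein genes, and ran from -0.11 to 0.069. *rps27* was at -0.017 with median-of-ratios scaling and -0.11 after quantile normalization, and ran from -0.10 to 0.15. The causes were not tested. Depth is unknown, and 3 libraries a group limit all of these tests.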
